A study of Sus scrofa with 17 samples.

Results

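The transcripts described here are 10 of the protein-coding genes of the pig mitochondrial genome: ND1, ND2, ND3, ND4 and ND5 of complex I, CYTB of complex III, COX1, COX2 and COX3 of complex IV, and ATP6 of the ATP synthase. They were chosen by gene identifier, by a rule that uses no measured value but was proposed with earlier results of these data known, and all 10 were found among the 26560 genes of the count table. Each had reads in every one of the 17 kidneys and none was lost to a filter on low values. The other 3 protein-coding genes of the mitochondrial genome, ATP8, ND4L and ND6, were not chosen and are named only where a result turns on them.

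The kidneys came from female wild-type Dutch Landrace pigs between 6 months and 1 year old, bled at a slaughterhouse, with a single kidney used per animal. Every kidney underwent 32 min of warm ischemia, 24 h of hypothermic machine perfusion (HMP) and 5 h of normothermic machine perfusion (NMP) with a perfusate that held autologous blood cells. G1 (5 kidneys) received vehicle, phosphate-buffered saline, in both perfusions. G2 (6 kidneys) received extracellular vesicles (EVs), which the labels call exosomes, from porcine urine progenitor cells during HMP only, and G3 (6 kidneys) received them in both HMP and NMP. The model is an isolated organ on a machine with no recipient, all groups share the warm ischemia and both perfusions, and no kidney sampled before perfusion was analysed here. RNA was extracted from biopsies frozen once NMP had ended, and libraries were made from polyadenylated RNA with a stranded kit.

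The mitochondrial genome is a small circle present in many copies per cell. It is transcribed as long precursors from which the single messages are cut and given a poly(A) tail, so that messages of shared origin can still differ in steady level through processing and decay. The proteins they encode sit in the inner membrane at the core of complexes I, III and IV, which pump protons as electrons pass to oxygen, and of complex V, which uses the gradient to make ATP. The remaining subunits come from the nucleus. The proximal tubule, which reabsorbs most of the filtered solute, depends on this respiration, and loss of it is a central event of ischemia and reperfusion.

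On the RefSeq annotation of Sscrofa11.1, the build of the count table, all 10 genes lie on the mitochondrial chromosome each as a single stretch without introns. ND1 (ENSSSCG00000018065) covers positions 3922 to 4876, ND2 (ENSSSCG00000018069) 5087 to 6128, COX1 (ENSSSCG00000018075) 6511 to 8055 and COX2 (ENSSSCG00000018078) 8203 to 8890. ATP6 (ENSSSCG00000018081) covers 9120 to 9800, COX3 (ENSSSCG00000018082) 9800 to 10583 and ND3 (ENSSSCG00000018084) 10653 to 10998. ND4 (ENSSSCG00000018087) covers 11359 to 12736, ND5 (ENSSSCG00000018091) 12935 to 14755 and CYTB (ENSSSCG00000018094) 15342 to 16481. Some neighbours overlap: ATP8 and ATP6 share 43 bases, ND4L and ND4 share 7, ATP6 and COX3 share 1, and the 3′ end of ND5 shares 17 with ND6. How the authors' counting treated a read over 2 genes, and whether it used strand, is not given in the sources used here.

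In 4 of the 17 kidneys the mitochondrial counts were made up differently from the others, and this touches several of the 10 transcripts. Kidney 1 of G1, kidneys 2 and 3 of G2 and kidney 5 of G3 had 12, 119, 33 and 55 counts on ATP8, the small subunit encoded beside ATP6. The other 13 kidneys had 15086 to 26403. In the same 4 kidneys ND1 had 12891 to 26520 counts against 60112 to 127497 in the other 13. All 3 groups hold at least 1 of the 4 kidneys, and a relation of the split to the treatment was not tested. Libraries were deeply sequenced throughout, with 19270046 to 24736473 counts on genes per kidney, so that counting error is small beside these gaps.

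The shift was not the same for every transcript. As a percentage of the counts on the 10 transcripts, ND1 made up 0.683 to 0.846% in the 4 kidneys and 2.56 to 3.48% in the other 13, and ND2 2.45 to 2.96% against 3.63 to 4.74%. COX2 lay at 7.46 to 8.91% against 10.1 to 12.1%. In the other direction, ND4 made up 7.88 to 8.93% against 4.54 to 5.66%, and ATP6 12.7 to 13.5% against 10.5 to 12.0%. The shares of COX1, COX3, ND3, ND5 and CYTB overlapped between the 4 kidneys and the rest. The ratio of ND4 to ND1 counts was 9.86 to 12.5 in the 4 kidneys and at most 1.85 in the other 13, with nothing in between.

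**Figure D1:**
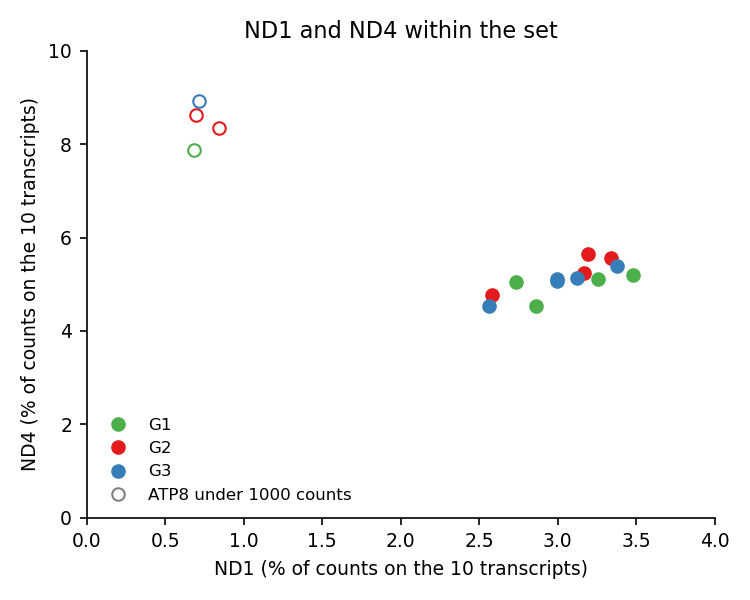
Share of ND1 (x axis) and of ND4 (y axis) in the counts on the 10 transcripts, in percent, with a point per kidney coloured by group. The 4 open points, kidneys with under 1000 ATP8 counts, sit at under 1% ND1 and above 7% ND4, and the 13 filled points lie together at 2.56 to 3.48% ND1.

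Outside the 13 mitochondrial protein genes, 4 rows without a gene symbol or a position in the tables used here separated the same kidneys, and they were picked after their values had been seen. ENSSSCG00000050793 had 26652 to 47171 counts in the 4 kidneys and 276 to 647 in the other 13. ENSSSCG00000054645 had 1997 to 5648 against 1 to 42, ENSSSCG00000047552 had 253 to 449 against 0 to 4, and ENSSSCG00000058815 had 57 to 73 against 0 to 3. Nuclear genomes hold copies of mitochondrial sequence, and how reads that match in more than 1 place were counted is not given in the sources used here, so the levels of ND1, ND2, COX2, ND4 and ATP6 in these kidneys are uncertain. The part of read assignment in the split was not tested. Results are therefore given with all kidneys and without these 4.

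The 10 transcripts took a large part of each library. They made up 11.6%, 10.9%, 12.1%, 13.6% and 10.3% of all counts on genes in kidneys 1 to 5 of G1. G2 ran from 10.6% to 17.3% with a median of 12.5%, and G3 from 9.35% to 19.7% with a median of 14.8%. G3 held both the lowest and the highest kidney of the series, and its range covered that of either other group.

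The mean share of the G1 kidneys was 11.7% ± 1.27 (SD, n = 5). That of the G2 kidneys was 12.9% ± 2.48 (SD, n = 6), and that of the G3 kidneys 14.5% ± 3.83 (SD, n = 6). These means lay apart by 2.83 percentage points between G3 and G1, 1.23 between G2 and G1 and 1.60 between G3 and G2, each smaller than the SD of the group with the higher mean. These are descriptions of a sum over chosen genes and carry no test. Without kidney 6 of G3, the highest of all, the difference between G3 and G1 was 1.80 points and that between G3 and G2 0.566. Without kidney 6 of G2 the difference between G2 and G1 was 0.362 points. Leaving out kidney 1 of G3 brought the difference between G3 and G2 to 1.022 points, and leaving out kidney 5 of G3 or kidney 6 of G2 brought it to 2.63 or 2.47. Without the 4 kidneys with few ATP8 counts the differences were 3.84, 1.52 and 2.33 points.

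**Figure D2:**
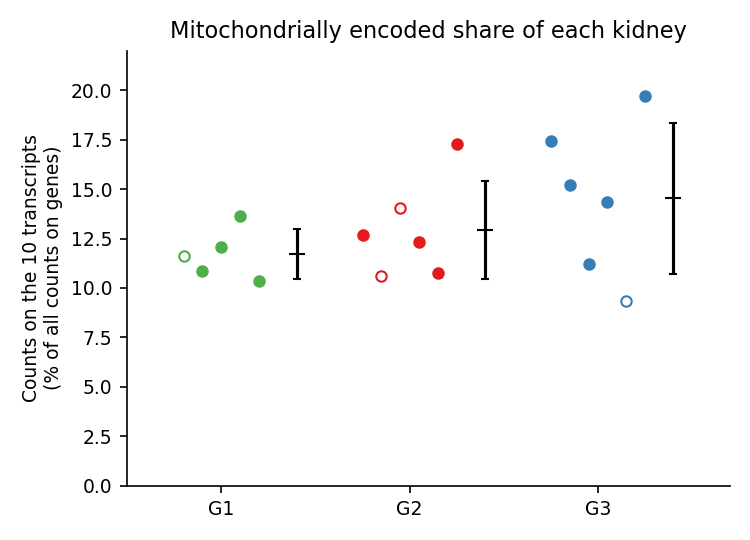
Counts on the 10 transcripts as a percentage of all counts on genes (y axis), by group, with a point per kidney, open for the 4 kidneys with under 1000 ATP8 counts. Black bars show the mean ± SD of each group: 11.7 ± 1.27 in G1, 12.9 ± 2.48 in G2 and 14.5 ± 3.83 in G3, with overlapping ranges.

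The code numbers in the labels form 3 runs, here called series A, B and C, whose meaning the labels do not give. From G1 2 kidneys carry a code of A, 2 of B and 1 of C. From G2 2 fall in A and 4 in C, and from G3 1 in A, 1 in B and 4 in C. Between G3 and G1 the share differed by 6.16 points within A, 2.37 within B and 3.31 within C. Between G2 and G1 it differed by 0.387 points within A and 3.26 within C. Between G3 and G2 it differed by 5.78 points within A, where G3 has 1 kidney, and by 0.0520 within C, which holds most kidneys of both groups. Within C the share ran from 9.35% in kidney 5 to 19.7% in kidney 6 of G3. In G2 it ran from 10.7% in kidney 5 to 17.3% in kidney 6. The differences within series thus rest on few kidneys, and they were not recomputed with single kidneys left out.

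Levels are given as CPM, counts scaled to a common library size after TMM normalisation, and per kilobase of gene where genes are compared with each other. Per kilobase, COX3 stood first with a median of 29391 CPM per kb over the 17 kidneys, followed by COX1 at 24665, ATP6 at 20749 and COX2 at 19515. CYTB lay at 9304. The complex I genes came last, with ND4 at 5487, ND2 at 4849, ND1 at 3854, ND3 at 3721 and ND5 at 2785.

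Most steps of that order held kidney by kidney. COX1 exceeded ATP6, COX2 exceeded CYTB, CYTB exceeded ND4, and ND2 exceeded ND1 in 17 of 17 kidneys. COX3 exceeded COX1 in 15 of 17, ATP6 exceeded COX2 in 14, ND1 exceeded ND3 in 13 and ND3 exceeded ND5 in 16. The order of ND4 and ND2 depended on the kidneys taken, since ND4 exceeded ND2 in only 4 of 17 although its median over all 17 is the higher. Those 4, and also the 4 in which ND3 exceeded ND1, are the kidneys with few ATP8 counts. Their ND1 levels of 640 to 1412 CPM per kb lay under every other kidney. In each of the other 13 kidneys ND2 exceeded ND4, with medians of 4963 and 4547 CPM per kb.

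The comparison of G3 with G1 asks whether vesicles given in both perfusions go with another level of these messages. All 10 transcripts had a higher fitted level in G3, by 0.29 to 0.51 on the log2 scale with a median of 0.38, and none passed the test. By edgeR's quasi-likelihood test the adjusted p ran from 0.813 to 0.847, and 0 of 10 were called at an adjusted p under 0.05, where 0.00778% of the 25719 genes tested were. At an unadjusted p under 0.05, 1 of the 10 was called, ND5, beside 4.73% of all genes and 1.94% of all genes in that direction. Of all genes, 46.9% had a positive log2 fold change, with a median of -0.02. In no transcript were the groups free of overlap, as they were in 0.311% of all genes. The 10 messages come from shared precursors and are not independent, so that their common sign is not 10 separate observations.

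ND5, the largest of the complex I subunits of this genome, had levels of 3798, 3330, 4905, 6191 and 3677 CPM in kidneys 1 to 5 of G1. In G3 it ran from 4493 to 8130 CPM with a median of 5822, and in G2 from 3880 to 8921 with a median of 4948. All 6 kidneys of G3 lay above the median of G1, but only 2 lay above its highest kidney. Set against G1, its log2 fold change in G3 was 0.49 ± 0.20 (SE), with an adjusted p of 0.813 by edgeR. The unadjusted p was 0.0284. It was over 0.05 without kidney 1, 2 or 5 of G1 or kidney 2 or 6 of G3, at 0.0606 to 0.0899.

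ND1, which helps form the site where complex I binds ubiquinone, had levels of 728, 2857, 3879, 4909 and 2613 CPM in kidneys 1 to 5 of G1. In G2 it ran from 678 to 6611 CPM with a median of 3246, and in G3 from 611 to 6111 with a median of 4751. The low value in G1, the low values in G2 (678 and 1349) and the lowest in G3 all belong to the 4 kidneys with few ATP8 counts. The fitted G3 to G1 log2 fold change was 0.46 ± 0.45 (SE) with all kidneys and 0.45 ± 0.22 without those 4, and neither passed (adjusted p = 0.847 and 0.773 by edgeR). It was 0.21 without kidney 1 of G1, 0.70 without kidney 4 of G1 and 0.70 without kidney 5 of G3.

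ND2, a proton-pumping subunit of the membrane arm, had 2625, 3716, 5052, 6493 and 3865 CPM in kidneys 1 to 5 of G1. It ran from 2463 to 9113 CPM in G3 with a median of 6525, and 4 of 6 kidneys of G3 exceeded every kidney of G1. The log2 fold change was 0.48 ± 0.28 (SE) with all kidneys and 0.51 ± 0.23 without the 4 kidneys with few ATP8 counts. Neither passed (adjusted p = 0.813 and 0.773 by edgeR). ND4, another proton-pumping subunit, had 8402, 4536, 6085, 7345 and 4817 CPM in G1, where the highest value belongs to the kidney with few ATP8 counts. In G3 it ran from 5876 to 10851 CPM with a median of 7963. Its log2 fold change was 0.37 ± 0.20 (SE), and 0.53 ± 0.23 without the 4 kidneys.

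ND3, the smallest of these messages at 346 bases, was the least abundant of the 10 in CPM apart from ND1 in the 4 kidneys. It averaged 1141 ± 245 CPM (SD, n = 5) in G1 and 1406 ± 370 (SD, n = 6) in G3, and its log2 fold change of 0.29 ± 0.19 (SE) was the smallest of the 10. Without the 4 kidneys it was 0.44 ± 0.20, and without kidney 6 of G3 it was 0.17. None of these passed the test.

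CYTB, the subunit of complex III that carries its quinone sites, had 9469, 8735, 9424, 11631 and 8619 CPM in kidneys 1 to 5 of G1 and ran from 7347 to 20514 CPM in G3 with a median of 12557. The log2 fold change was 0.38 ± 0.23 (SE), and 0.21 without kidney 6 of G3. CYTB made up 7.90 to 9.48% of the counts on the 10 transcripts over the 17 kidneys.

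Complex IV holds the catalytic subunits of oxygen reduction. COX1, which carries the site where oxygen is reduced, took the most counts of the 10 in every kidney. It had 36052, 32142, 38108, 44097 and 30917 CPM in kidneys 1 to 5 of G1, ran from 31909 to 63300 CPM in G2 with a median of 40965, and from 28588 to 82558 in G3 with a median of 53551. Of the 6 kidneys of G3, 4 exceeded every kidney of G1 and 1 lay under all of them. Its log2 fold change in G3 against G1, 0.51 ± 0.27 (SE), was the largest of the 10, and it did not pass (adjusted p = 0.813 by edgeR). Without kidney 6 of G3 it was 0.34, and without the 4 kidneys 0.64 ± 0.30.

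COX2, which receives electrons from cytochrome c, had 9498, 12124, 13426, 16242 and 10856 CPM in kidneys 1 to 5 of G1 and ran from 6509 to 26663 CPM in G3 with a median of 16283. COX3, a structural subunit of the complex, averaged 21476 ± 3345 CPM (SD, n = 5) in G1 and 27665 ± 10204 (SD, n = 6) in G3. Their log2 fold changes were 0.36 ± 0.28 and 0.35 ± 0.25 (SE), and both were 0.18 without kidney 6 of G3. In both, kidney 6 of G3 was the highest and kidney 5 of G3 the lowest of all 17.

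ATP6, the subunit of the ATP synthase that forms part of its proton channel, had 14436, 11835, 14130, 16318 and 11454 CPM in kidneys 1 to 5 of G1. In G3 it ran from 11004 to 27956 CPM with a median of 17315, and 4 of its 6 kidneys exceeded every kidney of G1. The log2 fold change was 0.37 ± 0.23 (SE), 0.51 ± 0.26 without the 4 kidneys and 0.21 without kidney 6 of G3. None of these passed the test.

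**Figure D3:**
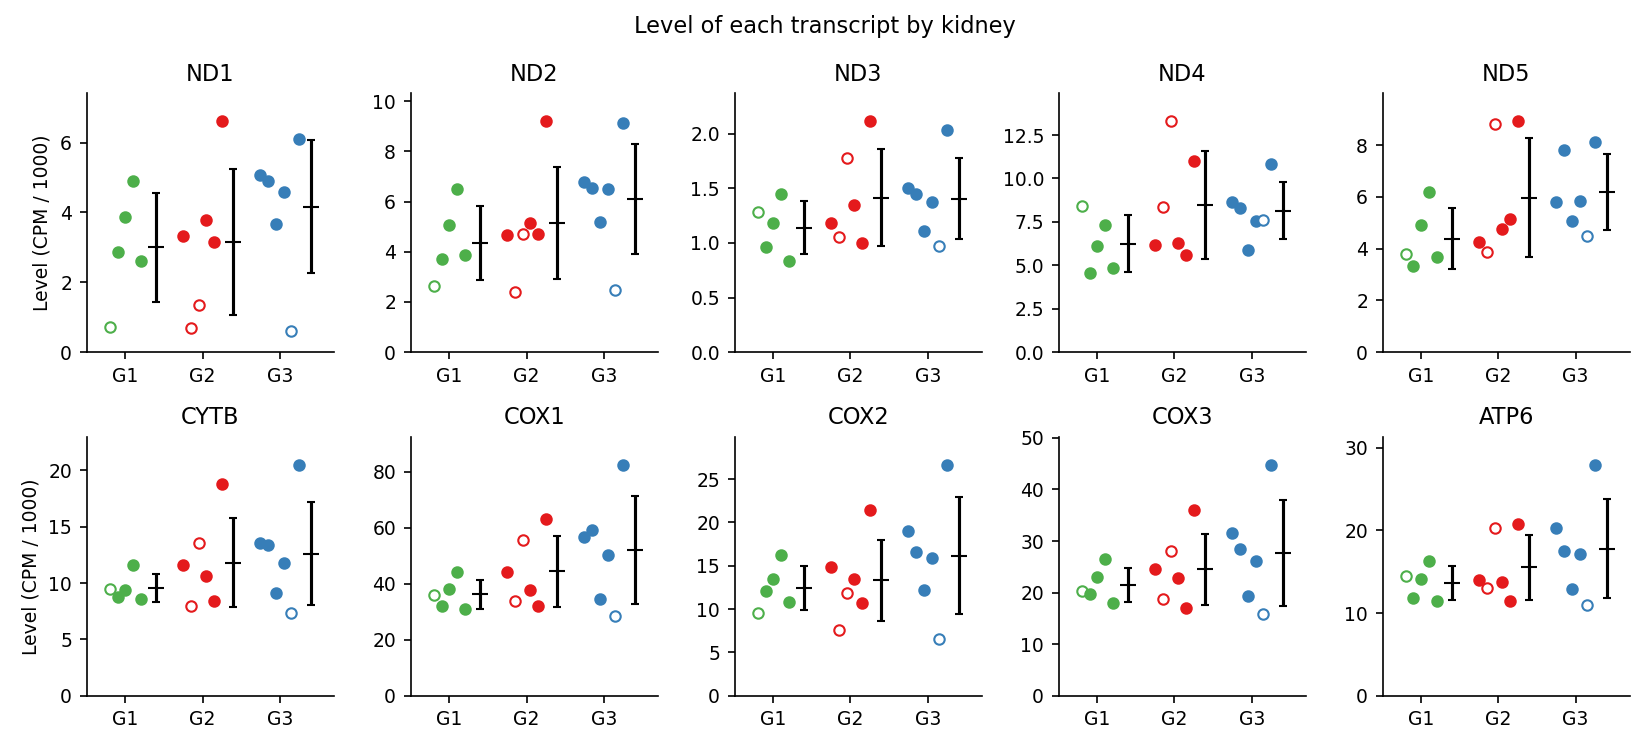
Level of each of the 10 transcripts (y axis, CPM divided by 1000, linear, from 0, with its own scale in each panel) by group, with a point per kidney, open for the 4 kidneys with under 1000 ATP8 counts. Black bars show the mean ± SD. The groups overlap in every panel, and the open points are the lowest 4 for ND1 but not for ND4.

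The difference between G3 and G1 was positive for all 10 transcripts within each number series of codes, at 0.44 to 1.81 on the log2 scale in A, 0.16 to 0.53 in B and 0.11 to 0.69 in C, though G3 has 1 kidney in A and in B and G1 has 1 in C. The upper end in A is ND1, where 1 of the 2 kidneys of G1 is among those with few ATP8 counts. Fitted without the 4 kidneys, 5 of 10 transcripts had an unadjusted p under 0.05 (ND2, ND3, ND4, ND5 and COX1), where 5.08% of the 25195 genes tested in that fit did and 2.35% with a higher level in G3, and all 10 had an adjusted p of 0.773. Without kidney 6 of G3 the median of the 10 log2 fold changes was 0.25.

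The comparison of G2 with G1 asks the same of vesicles given in HMP alone. The fitted log2 fold changes were positive for all 10, from 0.07 ± 0.47 (SE) for ND1 to 0.44 ± 0.26 for ND5, with a median of 0.27, but with scaling by library size alone ND1 was at -0.0153 and COX2 at -0.00065. In all genes the median was -0.01 and 49.3% were positive. By edgeR 0 of 10 passed (adjusted p 0.840 to 0.985), as did 0% of the 25699 genes tested. At an unadjusted p under 0.05 the counts were 0 of 10 and 3.51% of all genes (1.42% with a higher level in G2). The groups overlapped in every transcript, and were apart in 0.206% of all genes. Without the 4 kidneys with few ATP8 counts all 10 log2 fold changes were positive, with a median of 0.30, and 0 of 10 passed.

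Kidneys 3 and 6 of G2 stood above the rest of their group in most transcripts. COX1 had 55799 and 63300 CPM in these 2 kidneys and 31909 to 44202 in the other 4, and ND5 had 8817 and 8921 against 3880 to 5155. ND4 had 13295 and 11009 CPM in them and 5611 to 8384 in the rest. Kidney 3, and kidney 2 with the 8384 CPM, are among the 4 kidneys with few ATP8 counts, in which the level of ND4 is uncertain. Without kidney 6 of G2, the log2 fold changes against G1 of ND1, ND2 and COX2 were -0.29, -0.01 and -0.09, and the median of the 10 was 0.10. That of ND5, the highest with all kidneys, was 0.29 without kidney 6 of G2 and 0.60 without kidney 4 of G1. Within series A 9 of 10 differences were positive, at -0.02 to 0.22, and within C all 10, at 0.30 to 0.85, against a single kidney of G1.

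G3 and G2 differ in whether vesicles were given again during NMP. Of the 10 log2 fold changes 8 were positive, from -0.05 ± 0.25 (SE) for ND4 to 0.40 ± 0.48 for ND1, with a median of 0.19. The median was 0.01 without kidney 6 of G3, 0.11 without kidney 2 or kidney 5 of G2, 0.31 without kidney 6 of G2 and 0.30 without kidney 5 of G3. Without the 4 kidneys with few ATP8 counts all 10 were positive, with a median of 0.21. ND1 was at 0.19 without kidney 2 of G2 and 0.76 without kidney 6 of G2. The share of positive values among all genes was 49.7%. By edgeR 0 of 10 passed, with an adjusted p of 1.00 for each, as did 0% of the 25701 genes tested. At an unadjusted p under 0.05 the counts were 0 of 10 and 3.13% of all genes (1.61% with a higher level in G3), and no transcript had groups without overlap, against 0.0973% of all genes. Within series C, with 4 kidneys in each group, 1 of 10 differences was positive and the range was -0.21 to 0.01. Within A, with 1 kidney of G3, all 10 were positive at 0.27 to 1.75. The 3 comparisons share groups, so that their values are given side by side and not set against each other.

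**Figure D4:**
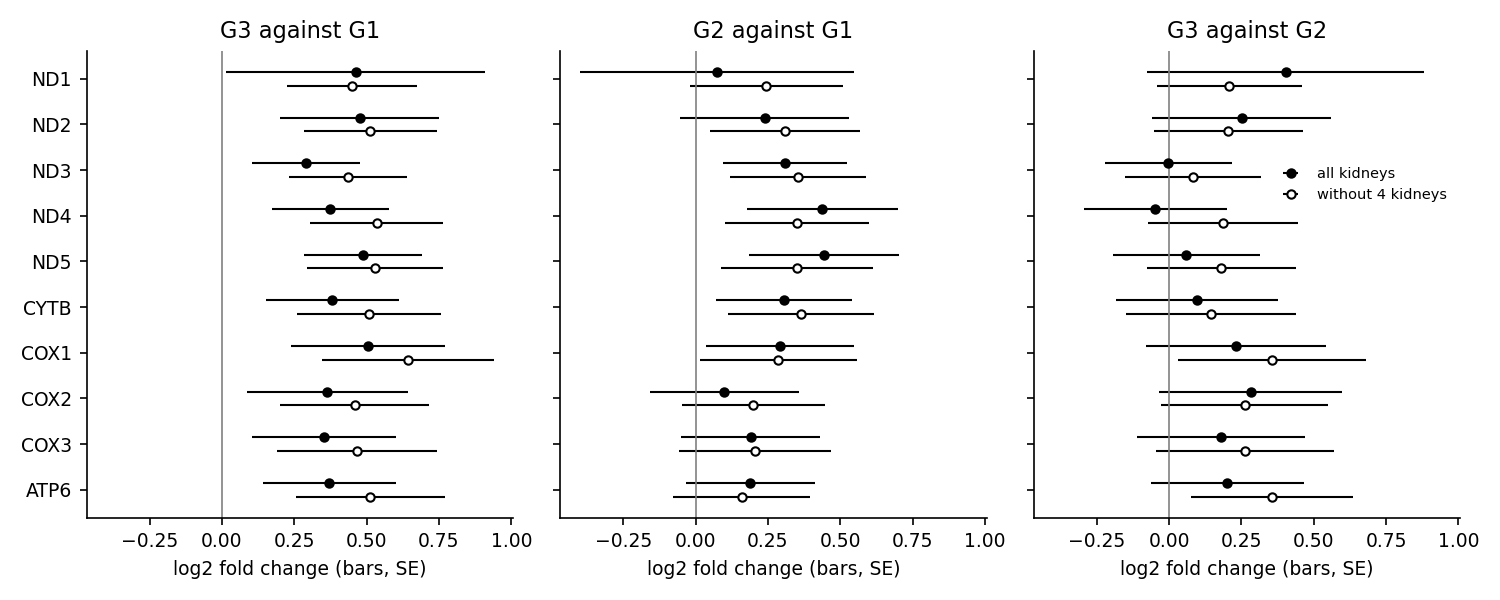
Fitted log2 fold change of each transcript (x axis) in the 3 comparisons, with bars for the SE. Filled points use all kidneys and open points leave out the 4 kidneys with under 1000 ATP8 counts, which narrows the SE of ND1 between G3 and G1 from 0.45 to 0.22, and no point passed the adjusted test.

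Across kidneys the 10 transcripts kept close company once the 4 kidneys were set aside. Relative to the counts on all genes but the 13 mitochondrial protein genes, Pearson's r of log2 levels over the other 13 kidneys ran from 0.80 to 0.997 over the 45 pairs, with a median of 0.94. The points share library, RNA sample and, for the genes, the mitochondrial precursors. Over all 17 kidneys r ran from -0.05 to 0.98 with a median of 0.82, and there the 4 kidneys form a cluster of their own.

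By likeness to the summed level of the 10, the closest of 8962 genes outside the 13 mitochondrial protein genes with a mean of at least 10 CPM were ENSSSCG00000002790 (r = 0.92 over 17 kidneys, 0.94 over the 13), ENSSSCG00000018055 (0.91), ENSSSCG00000013613 (0.91), RABAC1 (0.90) and H2AJ (0.90, and 0.98 over the 13). The most opposed were ZDHHC17 (-0.91), EHMT1 (-0.90), CEP192 (-0.89), ENSSSCG00000057427 (-0.88) and VPS39 (-0.87). RABAC1 encodes a membrane protein that binds Rab GTPases, H2AJ a histone variant, EHMT1 a histone methyltransferase and CEP192 a centrosome protein. The rows without a symbol have no position in the tables used here, so that their place in the nuclear genome was not checked. These are the extremes of many correlations and are given as a description only.

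The nuclear genes for the same complexes form the natural counterpart. Of complexes I, III (with cytochrome c), IV and V, 63 nuclear genes were matched by symbol. Relative to the same counts, their summed level ran with that of the 10 transcripts over the 17 kidneys, at a Pearson's r of 0.82 and a Spearman's rho of 0.83 on the log2 scale. The r was 0.77 without the 2 kidneys farthest from the median of the nuclear sum and 0.81 over the 13 kidneys. Other lists described below ran with the 10 as well over the 17 kidneys. Glycolysis did so at r = 0.76, RNA processing at 0.72, complex II at 0.69 and mitophagy at 0.69. The lists for transcription and DNA maintenance and for biogenesis ran against them, at -0.39 and -0.45. The relation was thus not particular to the partner subunits. The ratio of the mitochondrial to the nuclear sum averaged 15.004 ± 1.496 over the G1 kidneys (SD, n = 5). It averaged 16.3 ± 1.78 (SD, n = 6) over the G2 kidneys and 19.2 ± 5.02 (SD, n = 6) over the G3 kidneys. In 4 of 6 kidneys of G3 it exceeded the 17.1 of the highest kidney of G1, up to 27.8 in kidney 6, while kidney 5 of G3 had 14.0. Kidney 6 of G2, at 19.4, also exceeded it. The value of kidney 6 of G3 raised both the mean and the SD of its group.

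**Figure D5:**
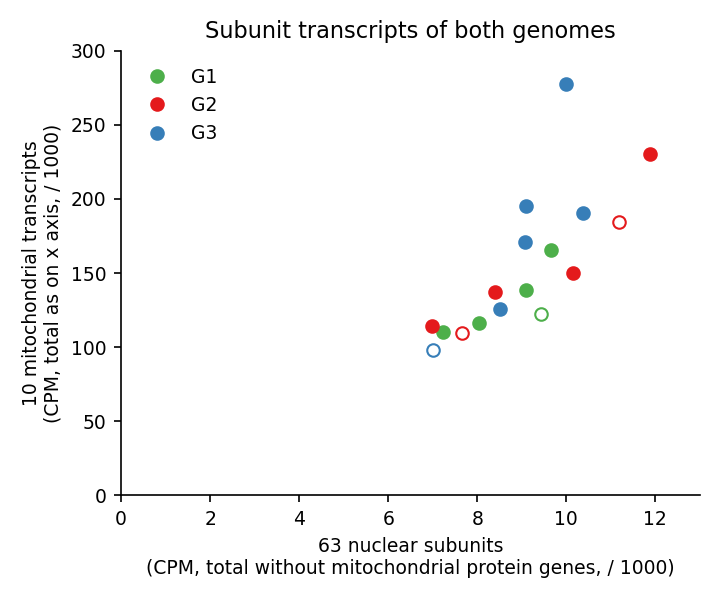
Summed level of 63 nuclear subunit genes (x axis) and of the 10 mitochondrial transcripts (y axis), both as CPM relative to all genes but the 13 mitochondrial protein genes and divided by 1000, with a point per kidney coloured by group and open for the 4 kidneys with under 1000 ATP8 counts. The sums run together, and kidney 6 of G3 stands highest on the y axis with a ratio of 27.8.

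None of the nuclear subunit genes passed the test between G3 and G1, and none had an unadjusted p under 0.05, where 4.73% of all genes did. Of 32 matched complex I subunits 22 had a positive log2 fold change, with a median of 0.04 beside -0.02 in all genes. The extremes by p were NDUFB4, an accessory subunit, at 0.18 ± 0.12 (SE) and NDUFA5 at -0.10 ± 0.12. Complex III with cytochrome c had 5 of 9 positive with a median of 0.01 (UQCRB 0.06 ± 0.13, UQCR10 -0.05 ± 0.13). Complex IV had 8 of 10 with a median of 0.07 (COX7B 0.18 ± 0.22, COX7A1 -0.04 ± 0.13). Complex V had 10 of 12 with a median of 0.04 (ATP5PO 0.14 ± 0.14, ATP5PF -0.03 ± 0.13), though 5 of its 17 listed genes could not be matched. Complex II, which has no mitochondrially encoded subunit, had 4 of 4 with a median of 0.03 (SDHB 0.13 ± 0.12).

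Between G2 and G1 the medians were 0.10 for complex I (29 of 32 positive), 0.10 for complex III (9 of 9), 0.11 for complex IV (10 of 10), 0.13 for complex V (12 of 12) and 0.04 for complex II (3 of 4). Between G3 and G2 they were -0.04 (10 of 32), -0.07 (0 of 9), -0.04 (2 of 10), -0.07 (0 of 12) and 0.03 (3 of 4). None of these genes passed the test in either comparison.

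Genes that act on mitochondrial RNA and DNA were listed as well. Of 15 for transcription and DNA maintenance, 8 were positive between G3 and G1 with a median of 0.01. TFB1M, which methylates mitochondrial ribosomal RNA, had 0.48 ± 0.24 (SE) and MTERF1, a transcription termination factor, -0.31 ± 0.19. Of 19 for RNA processing, poly(A) tailing and stability, 13 were positive with a median of 0.07. PNPT1, an exoribonuclease of mitochondria, averaged 27.7 ± 1.07 CPM (SD, n = 5) in G1 and 34.0 ± 4.97 (SD, n = 6) in G3. It was the only gene of the 10 pathway lists with an unadjusted p under 0.05 in that comparison, at 0.0273 (adjusted p = 0.813 by edgeR). Over all genes 4.73% had an unadjusted p under 0.05 there, so that PNPT1 is given as a description only. PTCD2, the gene of the same list with the smallest p among those lower in G3, had -0.11 ± 0.15 (SE).

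Of 8 regulators of mitochondrial biogenesis 2 were positive between G3 and G1, with a median of -0.10 (ESRRG, an orphan nuclear receptor, 0.12 ± 0.25 and GABPA, a transcription factor, -0.16 ± 0.15). Of 5 mitophagy genes 3 were positive with a median of 0.11 (OPTN, an autophagy receptor, 0.16 ± 0.10). Of 14 glycolysis genes 12 were positive with a median of 0.07 (hexokinase HK1 0.26 ± 0.14 and lactate dehydrogenase LDHA -0.07 ± 0.21). None of these passed.

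The same lists had medians between G2 and G1 of -0.10 for transcription and DNA maintenance (5 of 15 positive), 0.08 for RNA processing (14 of 19), -0.01 for biogenesis (3 of 8), 0.07 for mitophagy (4 of 5) and 0.19 for glycolysis (13 of 14). Between G3 and G2 they were 0.08 (10 of 15), 0.01 (11 of 19), -0.05 (3 of 8), -0.06 (2 of 5) and -0.06 (2 of 14).

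In bulk tissue, fewer cells of a type and less RNA per cell cannot be told apart. The tissue label was checked against markers of kidney cells. The 8 markers of the proximal tubule, a segment rich in mitochondria, summed to 12038 to 17111 CPM in G1, 12295 to 23995 in G2 and 13092 to 20432 in G3, with all 8 detected in every kidney. Their sum ran with that of the 10 transcripts at r = 0.58 and rho = 0.60 over 17 kidneys, with r = 0.51 without the 2 farthest and 0.45 over the 13 kidneys. The number of genes detected, 18813 to 21049 per kidney, ran against it at r = -0.76 and rho = -0.68, with r = -0.70 without the 2 farthest and -0.73 over the 13. The part of tubule content and of the number of genes detected in the levels of the 10 transcripts was not tested.

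The ranges of the summed markers of other cells overlapped between the groups. The 3 of the thick ascending limb summed to 2890 to 4395 CPM in G1, 2105 to 5646 in G2 and 1805 to 6949 in G3. The 5 of the distal tubule and collecting duct summed to 619 to 1146, 822 to 1477 and 726 to 1237 CPM, and 2 of 3 podocyte markers to 64.2 to 103, 58.4 to 136 and 56.5 to 85.3. The 5 endothelial markers summed to 690 to 791, 550 to 1107 and 563 to 1013 CPM, the 5 leukocyte markers to 86.0 to 110.0, 71.5 to 152 and 94.4 to 115, and the 4 of fibroblasts and mural cells to 269 to 511, 327.1 to 607 and 219 to 449. Of the 4 red blood cell markers 3 were matched and summed to 1.42 to 3.47, 0.920 to 5.36 and 0.0948 to 1.96 CPM, with AHSP at 0 in 9 kidneys and ALAS2 in 1, and of the leukocyte markers MS4A1 was at 0 in 1. Of 2 tubular injury markers 1 was matched, at 6.76 to 23.5, 7.09 to 22.2 and 9.90 to 16.8 CPM. None of the marker genes passed the test in any comparison.

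The medians and fold changes of some lists differed between the groups, with overlapping ranges and no gene past the test. The proximal tubule sum had a median of 18768 CPM in G3 and 17542 in G2, both above the highest kidney of G1, against 16378 in G1. Of its 8 genes 7 had a positive log2 fold change between G3 and G1, with a median of 0.08, and 8 between G2 and G1, with a median of 0.17. The endothelial sum had a median of 939 CPM in G3 and 851 in G2, both above the highest kidney of G1, against 771 in G1. All 5 of its genes had a positive log2 fold change between G3 and G1, with a median of 0.23. The thick ascending limb had 0 of 3 positive with a median of -0.29, though the range of its sum in G3 contains those of G1 and G2, the podocyte list 0 of 2 with a median of -0.23, and the red blood cell list 0 of 3 with a median of -0.98. The red blood cell sum had a median of 1.34 CPM in G3, under the lowest kidney of G1. PECAM1, an endothelial adhesion molecule, was among the marker genes at an unadjusted p under 0.05 between G3 and G1, where 4.73% of all genes were. Its log2 fold change was 0.31 ± 0.14 (SE), and it is named after its values were seen. Between G3 and G2 the fibroblast and mural cell list had 0 of 4 positive with a median of -0.52, with 2 of 4 at an unadjusted p under 0.05, where 3.13% of all genes were, the collagen genes COL1A1 and COL1A2, also named after their values were seen. The part of these cell types in the levels of the 10 transcripts was not tested.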

How the data were processed

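RNA of biopsies from 17 kidneys, frozen after NMP, was sequenced. The authors trimmed adapters with cutadapt 4.0, aligned with STAR to Sscrofa11.1 and deposited a table of raw, unnormalized counts (genes by kidneys). The counting program is not given in the sources used here. The authors also deposited fold changes and p-values from DESeq2 for G3 against G1; these were not used.

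Counts were tested in R 4.3.3 with the quasi-likelihood test of edgeR 4.0.16 (TMM, genes with 1 or more counts over those kidneys, only the 2 groups compared, Benjamini-Hochberg over all genes tested, adjusted p under 0.05). A fold change is on the log2 scale with its SE. The fits were tested on simulated data. Total counts ran from 19270046 to 24736473 and TMM factors from 0.825 to 1.10. Within groups, 40 pairs of kidneys gave a chi-square of 21.4 to 152.7 for each degree of freedom, so that no pair agreed within counting error. Alternatives used DESeq2 1.42.0 and limma 3.58.1 voom, other scalings and filters, all 3 groups, the code series, a replicate block and each kidney left out. Kidneys came from separate animals.

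Relations between genes used counts per total of all genes but the 13 mitochondrial protein genes. Symbols came from a table of gene names, which matched 15093 of the 26560 identifiers, and from 181 listed genes 164 were matched. Gene positions and lengths came from RefSeq on Sscrofa11.1. The members and lists were chosen with earlier results of these data known. Named genes were all 10 members, of each pathway list the gene with the smallest p in each direction between G3 and G1, and, outside the 13, the 5 genes with the highest and the 5 with the lowest correlation. Some genes are not reported here. Figures and summaries used Python 3.11.15 with pandas 2.3.3, numpy 2.4.6, scipy 1.17.1 and matplotlib 3.10.9.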

Additional observations from a re-analysis of the deposited data

Results flagged for a closer look

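Within groups of 5 or 6 kidneys, a kidney was noted where its gap to the nearest other exceeded Dixon's 95% critical value. Of 63 groups of values examined 8 did so, where chance gives about 3.15, and all 8 came from kidney 1 of G1 or kidney 5 of G3, which are among the 4 with few ATP8 counts. The 8 values are not independent, since they come from the same counts. This rule cannot mark kidneys of a group that lie close together, as kidneys 2 and 3 of G2 do in the share of ND1. The log2 CPM of ND1 was 9.25 in kidney 5 of G3. Among the counts on the 10 transcripts, ND1 made up 0.683% in kidney 1 of G1 and 0.715% in kidney 5 of G3, and COX2 8.91% and 7.62%. ND4 made up 7.88% and 8.93% in the same kidneys, and ATP6 13.5% in kidney 1 of G1. The cause was not tested.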

How the results depend on the processing

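No transcript passed an adjusted p under 0.05 in any comparison under any alternative tried, leaving out each kidney included, and between G3 and G1 all 10 log2 fold changes stayed positive in each. At an unadjusted p under 0.05 between G3 and G1, the edgeR count of 1 (4.73% of all genes) became 5 with the code series as a covariate (4.89%), 3 with DESeq2 (3.72%), 2 with voom (6.02%), 0 with all 3 groups in the fit (4.34%), 5 without the 4 kidneys with under 1000 ATP8 counts (5.08%, an alternative added after seeing the data), and 0 to 5 without each kidney in turn: 5 without kidney 5 of G3 (4.60%), 3 without kidney 3 of G3 (5.48%), 2 without kidney 4 of G1 (4.33%) and 0 without kidney 2 or 5 of G1 or kidney 2 or 6 of G3. Between G2 and G1 it was 1 without kidney 4 of G1 (3.66% of all genes).

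Over all genes, edgeR called 2 between G3 and G1, 0 with all 3 groups, 11 with the code series, 29 with DESeq2, 1 with the expression filter, 1 with voom and 0 without the 4 kidneys. Between G2 and G1 it called 0, with 2 for the code series and 1 for DESeq2 (901 at an unadjusted p under 0.05). Between G3 and G2 it called 0, with 3 for DESeq2 and 2 without the 4 kidneys (805 unadjusted). Leaving out each kidney gave 0 to 9 between G3 and G1, 0 between G2 and G1 and 0 to 5 between G3 and G2. Between G3 and G1 it was 9 without kidney 5 of G1, 4 without kidney 4 of G1, 1 without kidney 1 or 4 of G3 and 0 without kidney 1 or 3 of G1 or kidney 2 or 5 of G3, and between G3 and G2 it was 5 without kidney 2 of G2. The cause was not tested.

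Signs turned between G2 and G1 for ND1 (-0.0153 by library size only, -0.11 by voom) and COX2 (-0.00065 by library size only). Between G3 and G2 they turned for ND3 (0.0825 without the 4 kidneys), ND4 (0.0360 by voom, 0.186 without the 4 kidneys) and ND5 (-0.0344 with the code series). Leaving out each kidney gave -0.29 to 0.32 for ND1, -0.0123 to 0.42 for ND2 and -0.0914 to 0.22 for COX2 between G2 and G1. Between G3 and G2 it gave -0.0130 to 0.32 for COX3, -0.14 to 0.15 for ND3, -0.15 to 0.13 for ND4, -0.0424 to 0.21 for ND5 and -0.10 to 0.28 for CYTB. None of these values passed the test.

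The share of counts differed between G3 and G1 by 6.16 points within series A, and by 1.80 to 3.86 without each kidney in turn. It differed between G3 and G2 by 5.78 within A and 0.566 to 2.63, and between G2 and G1 by 0.362 to 1.71.

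Kidneys with the same number come from different animals. Correlations of their deviations were -0.14 to 0.42 over 5 pairs of G3 and G1 (3 kidneys best with their own number), -0.14 to 0.17 over 5 of G2 and G1 (1) and -0.27 to 0.44 over 6 of G3 and G2 (1). So few pairs cannot show whether kidneys of the same number share anything, and the main fits use no pairing. The block takes up kidney 6 of G2 and of G3 in the comparisons with G1, where they have no partner. With it the median log2 fold change of the 10 was 0.22 between G3 and G1 (0.38 without the block), 0.09 between G2 and G1 (0.27) and 0.16 between G3 and G2 (0.19), and COX2 and COX3 were 0.11 and 0.14 between G3 and G1. With the replicate block, 9, 0 and 7 genes were called in these 3 comparisons, 2 transcripts had an unadjusted p under 0.05 between G3 and G1 (4.39% of all genes), ND1 was -0.36 and COX2 -0.10 between G2 and G1, and ND3 and ND4 were 0.0150 and 0.0148 between G3 and G2.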
